A study of Mus musculus with 8 samples.

Results

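The genes described here encode the machinery that carries a cell through G2 phase and mitosis: the cyclins and the kinase that start division, the checkpoint and the ubiquitin ligase that time it, the kinetochores and the spindle that pull chromosomes apart, and the proteins that pack chromosomes and split the cell. They were chosen as a list of 43 mouse genes, found through the transcript accession of each array probe, out of 32432 genes and transcripts that the probes represented. All 43 had at least 1 probe, and 41 were measured above the detection limit described below. Microvessels were isolated from the forebrain of mice at postnatal day 5 (P5), at postnatal day 10 (P10) and in adulthood, by homogenisation, density sedimentation and filtration to particles under 70 µm. The mice carried no treatment or transgene in the labels, and strain, sex and the exact adult age are not given in the sources used here. The expression data came from 8 two-colour Agilent arrays, each carrying RNA of a pair of ages. Each of 2 slides was 1 replicate of 4 arrays: P5/adult, P10/adult, a dye-exchanged P10/adult and P5/P10. Each age therefore had 2 replicates. The labels do not say whether these came from separate animals or pools, so the p-values cover no more than the scatter among the samples at hand, which could be technical.

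Division is driven by transcripts that are scarce in resting cells and accumulate from late S phase until mitosis ends. Their promoters typically carry CCAAT boxes, bound by the factor NF-Y, and a cell cycle genes homology region (CHR), bound in resting cells by the repressive DREAM complex and in dividing cells by an activating complex of B-MYB and FOXM1. In the brain, vessels still sprout and lengthen after birth, while endothelial cells of the adult brain rarely divide; neural and glial progenitors also divide in the forebrain after birth.

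Promoter sequences are shown first for 1 member of each role group, the one with the highest P10/adult ratio that had a promoter entry, because their motifs were not used to choose the members. Each runs 5′ to 3′ from 120 bases before to 30 bases after the annotated start, 150 bases in all, from RefSeq with GRCm38.p6 coordinates. Capitals mark matches to the CCAAT box (CCAAT, or ATTGG on the other strand) and to the CHR core (TTTGAA, or TTCAAA on the other strand, and TTCGAA, which reads alike on both strands).
Ccnb1 (chr13:100786457-100786606, minus strand): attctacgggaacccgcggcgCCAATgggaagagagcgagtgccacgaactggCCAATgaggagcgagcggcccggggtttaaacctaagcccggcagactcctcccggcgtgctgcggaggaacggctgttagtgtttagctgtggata
Ube2c (chr2:164769809-164769958, plus strand): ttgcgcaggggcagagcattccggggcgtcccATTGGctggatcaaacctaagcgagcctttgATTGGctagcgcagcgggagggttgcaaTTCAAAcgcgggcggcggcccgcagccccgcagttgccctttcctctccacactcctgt
Bub1 (chr2:127831830-127831979, minus strand): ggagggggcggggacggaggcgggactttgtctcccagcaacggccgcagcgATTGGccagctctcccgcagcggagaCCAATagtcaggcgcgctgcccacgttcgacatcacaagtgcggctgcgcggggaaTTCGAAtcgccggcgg
Plk1 (chr7:122159315-122159464, plus strand): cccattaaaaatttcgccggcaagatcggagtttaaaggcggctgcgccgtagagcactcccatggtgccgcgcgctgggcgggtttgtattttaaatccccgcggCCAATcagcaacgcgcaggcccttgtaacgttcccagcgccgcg
Birc5 (chr11:117849117-117849266, plus strand): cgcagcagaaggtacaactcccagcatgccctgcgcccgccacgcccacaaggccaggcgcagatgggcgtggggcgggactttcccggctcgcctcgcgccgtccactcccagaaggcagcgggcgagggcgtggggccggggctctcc
Spc25 (chr2:69206184-69206333, minus strand): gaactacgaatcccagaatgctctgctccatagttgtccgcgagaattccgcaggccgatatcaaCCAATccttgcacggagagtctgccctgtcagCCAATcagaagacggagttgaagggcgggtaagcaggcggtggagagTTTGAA
Kif4 (chrX:100625945-100626094, plus strand): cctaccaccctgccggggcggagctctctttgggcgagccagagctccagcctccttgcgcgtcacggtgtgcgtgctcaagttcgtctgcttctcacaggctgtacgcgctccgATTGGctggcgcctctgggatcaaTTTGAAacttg
Prc1 (chr7:80294331-80294480, plus strand): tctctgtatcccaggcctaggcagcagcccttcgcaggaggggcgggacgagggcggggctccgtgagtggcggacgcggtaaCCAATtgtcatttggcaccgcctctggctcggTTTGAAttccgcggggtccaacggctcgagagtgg
Mki67 (chr7:135716350-135716499, minus strand): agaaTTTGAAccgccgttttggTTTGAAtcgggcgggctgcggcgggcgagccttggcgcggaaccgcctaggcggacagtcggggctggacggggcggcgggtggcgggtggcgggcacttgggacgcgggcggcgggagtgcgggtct
For Prc1 and Mki67 the window belongs to an annotated start that is not the outermost one of the gene.

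Of these 9 windows, 6 held a CHR core and 7 held a CCAAT box. Ube2c had 2 CCAAT boxes at -88 and -57 and a CHR core at -29, counted from the start. Bub1 and Spc25 each had 2 CCAAT boxes before the start and a CHR core after it, at +15 and +25. Mki67 had 2 CHR cores at -116 and -98 and no CCAAT box in the stretch shown, Ccnb1 had 2 CCAAT boxes and no CHR core there, and the Birc5 stretch held neither set of letters. No match says only that these letters are not in this window.

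Over the full RefSeq windows of 250 bases before to 50 bases after the start, which 36 of the 43 members had, 28 members (77.8%) held a CHR core, against 5254 of all 27025 promoters (19.4%). A CCAAT box was present in 29 members (80.6%) and in 37.9% of all promoters, and both motifs in 25 members (69.4%) and in 7.7% of all promoters. At least 2 CCAAT boxes stood in 20 members (55.6%), against 12.2% of all promoters. Closer to the start, from 100 bases before to 50 after the start, 27 of 36 mitotic genes (75%) held a CHR core, against 2 of 21 genes of a DNA replication list (9.52%) and 8.68% of all promoters. In the full windows, 23.8% of the DNA replication list held a CHR core, 57.1% a CCAAT box and 19% both motifs. At least 2 CCAAT boxes stood in 38.1% of that list. These are descriptions of letters, with no test. The plot of motif positions shows the 2 motifs at different distances from the start.

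**Figure D1:**
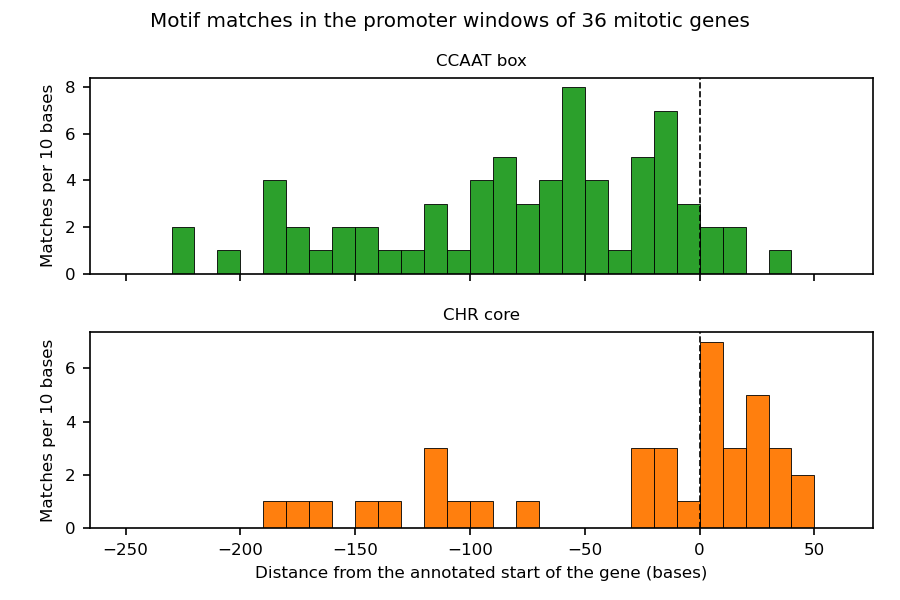
Number of CCAAT box matches (upper panel) and CHR core matches (lower panel) per 10 bases in the promoter windows of the 36 members with a RefSeq entry, by distance from the annotated start (dashed line). Of 69 CCAAT matches, 64 lay before the start, with a median position of -65; of 38 CHR core matches, 20 lay after it, with a median position of +3.

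Arrays and detection are summarised once. Per channel, the share of the 43020 non-control spots that Feature Extraction marked as well above background ran from 65.2% to 73.3%, and the number of arrays limits the precision. A probe had to be so marked in all channels of at least 1 age, and a gene was represented by its brightest such probe, which left 21926 genes for the test. Ratios are log2 values of the first-named age over the second, with standard errors (SE) from limma over 2 replicates per age. A gene was called at a limma adjusted p under 0.05, Benjamini-Hochberg over all 21926 genes. Levels are log2 normalized channel signals, 1 per age and replicate, and can be compared between ages of 1 gene but not between genes. The 3 comparisons share samples, since each slide was solved as a whole. The vessel label was checked against 12 endothelial markers, which were all measured and averaged 11.24 and 11.10 at P5, 12.56 and 12.51 at P10 and 13.41 and 13.39 in adults in the replicates. In such bulk samples, fewer cells of a type and less RNA per cell cannot be told apart.

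The mitotic genes stood higher in the young vessels than in the adult ones at both ages. At P5, 39 of the 41 tested members were called higher than in adults and all 41 lay above 0, where 30.1% of all genes were called higher and 23% lower. At P10, 39 of 41 were called higher and again all 41 lay above 0, where 8.42% of all genes were called higher and 9.1% lower. The members and the other gene lists were chosen with earlier results of these data known, so these shares describe the lists and are no independent test. Only 26 of the 41 were well above background in every adult channel, and the rest passed the filter through a young age. The median member ratio was 1.59 for P5/adult and 2.13 for P10/adult, beside medians over all genes of 0.09 and 0.01. The same 38 members were called at both young ages; Hmmr was called at P5 only, Ttk at P10 only and Ncapg at neither. At least a 2-fold difference was reached by 33 called members at P5 and 37 at P10, and by 32 at both. With the background model fitted on every spot, 12 members were called at P5 and 3 at P10. With the deposited processed signals the medians were 2.99 and 3.81. On the single arrays, 42 or 43 of all 43 members lay above 0 in each of the 6 arrays against adult RNA.

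**Figure D2:**
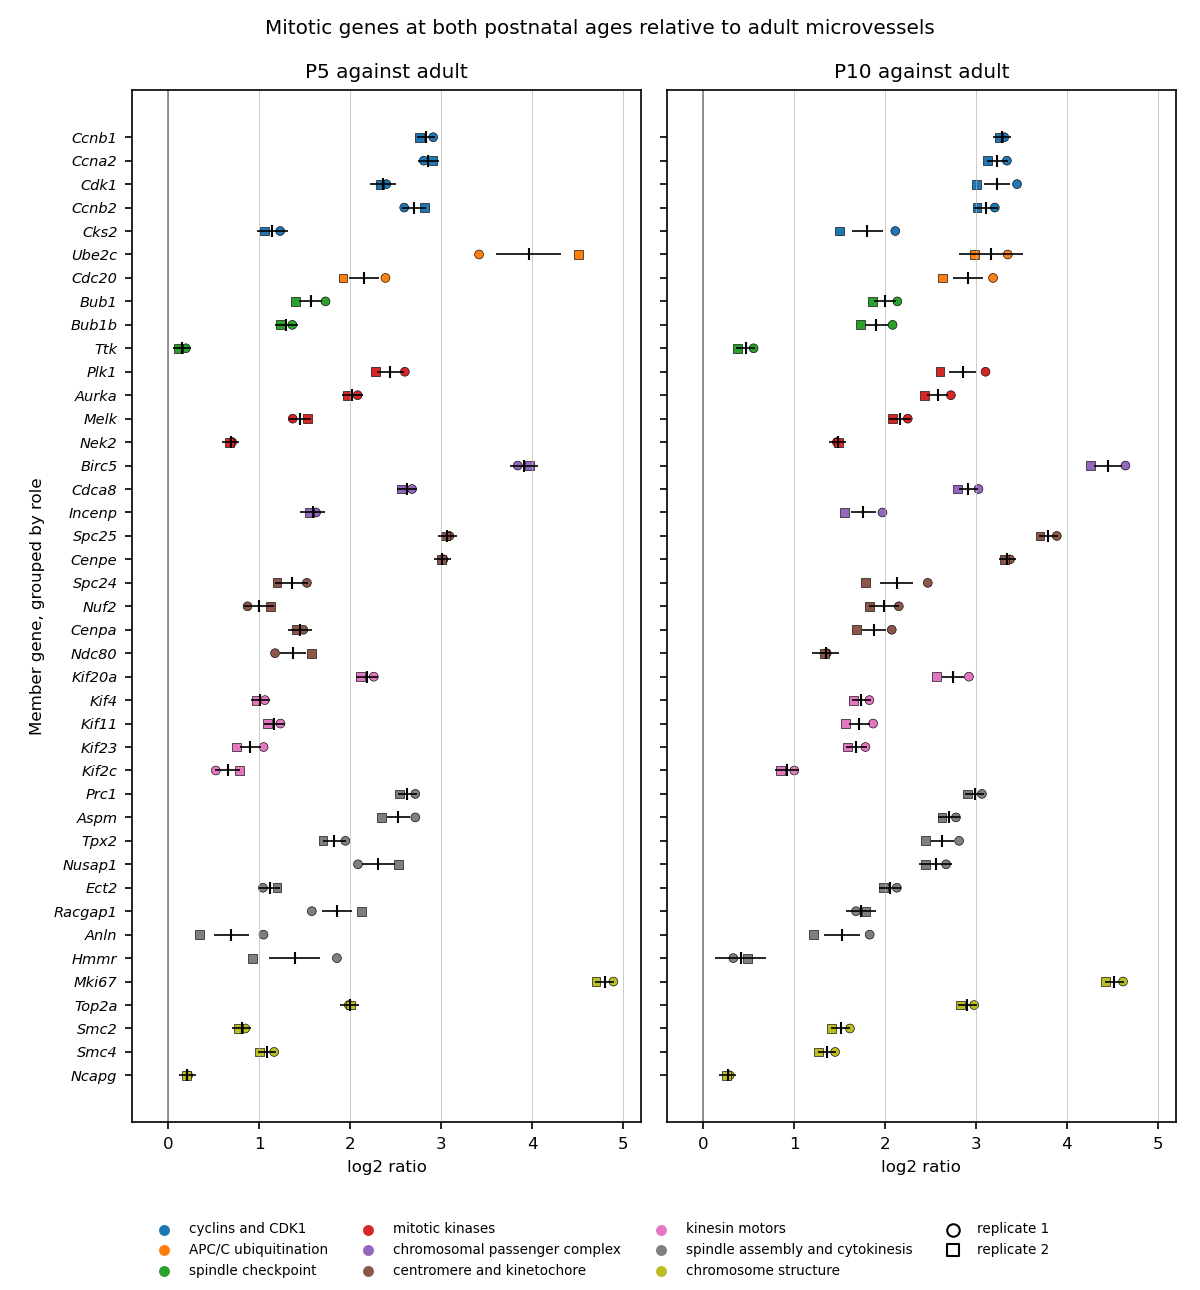
Log2 ratio of P5 over adult (left) and P10 over adult (right) for the 41 tested members, ordered by role group and, within it, by the P10/adult ratio. Circles and squares are replicates 1 and 2, and the vertical tick with its horizontal bar is the mean and SE. Every member lies above 0 in both panels, from 0.15 (Ttk) to 4.80 (Mki67) at P5 and from 0.27 (Ncapg) to 4.52 (Mki67) at P10.

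Among the cyclins and their kinase, all 5 members were called higher at both young ages. Ccnb1, cyclin B1, the activator of the kinase that triggers mitosis, had levels of 9.60 and 9.24 at P5, 10.11 and 9.79 at P10 and 6.85 and 6.51 in adults. Both young ages were above both adult values, and P10 was the highest age in each replicate. Its ratio was 2.84 ± 0.10 (SE, adjusted p = 0.000525) for P5/adult and 3.28 ± 0.10 (adjusted p = 0.00168) for P10/adult. The 4 P10/adult arrays gave 3.25 and 3.21 with the first dye order and 3.42 and 3.33 with dyes exchanged. Cdk1, the catalytic partner of the mitotic cyclins, had levels of 9.09 and 8.91 at P5, 10.28 and 9.57 at P10 and 6.81 and 6.54 in adults, and ratios of 2.36 ± 0.14 and 3.23 ± 0.14 over adult. Ccna2 (cyclin A2, ratios 2.86 and 3.23) and Ccnb2 (cyclin B2, 2.70 and 3.11) lay close to these, while Cks2, a small subunit that binds CDKs, was lower at 1.14 and 1.81.

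Both members that serve the anaphase-promoting complex, the ubiquitin ligase that destroys cyclin B and securin, were higher at both ages. Ube2c, its ubiquitin-conjugating enzyme, had levels of 10.64 and 11.86 at P5, 10.78 and 10.24 at P10 and 7.41 and 7.24 in adults. The young and adult ranges did not overlap. By these levels the 2 replicates differed on the order of P5 and P10. The solved P5/P10 ratios of Ube2c were above 0 in both replicates, at 0.07 and 1.53, and the direct arrays gave 0.10 and 1.51. Its ratio was 3.96 ± 0.36 (adjusted p = 0.0017) for P5/adult and 3.17 ± 0.36 (adjusted p = 0.00823) for P10/adult; the P5/adult arrays gave 3.06 in replicate 1 and 4.45 in replicate 2. Cdc20, the activator of the complex at anaphase, had ratios of 2.15 ± 0.16 and 2.91 ± 0.16. The subunits of the complex itself were called about as often as genes in general at P5: of 13 subunits and activators listed apart from the members, 4 (30.8%) were called higher and 2 (15.4%) lower at P5, beside 30.1% and 23% of all genes, and none was called at P10 by limma (5 at an unadjusted p under 0.05). The highest of the 4 at P5 was Fzr1 (0.88), the activator of the complex after mitosis, followed by Anapc4 (0.75), and the 2 lower ones were Anapc11 (-0.52) and Cdc26 (-0.30).

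The spindle checkpoint, which holds anaphase until every kinetochore is attached, was represented by 3 kinases or kinase-like proteins. Bub1, which recruits other checkpoint proteins to kinetochores, had levels of 7.81 and 7.45 at P5, 8.42 and 7.96 at P10 and 6.28 and 6.12 in adults, with ratios of 1.56 ± 0.12 (adjusted p = 0.00127) and 2.00 ± 0.12 (adjusted p = 0.00257). Its adult signal was dim: of 60 adult spots, 10 in each of 6 channels, 2 were well above background, 1 in each of 2 channels, and with the processed signals the ratios were 4.97 and 5.60. Bub1b, the BubR1 protein that inhibits Cdc20, was not well above background in any adult channel. Its difference is therefore an approximate bound from levels: at least 2.23-fold higher at P5 and at least 3.77-fold higher at P10. Each such bound sets the mean level of the brighter age against the higher of the dim probe's own signal and the lowest well-measured signal of its arrays. It carries no error and can lie slightly above the fold from the limma ratio. For Bub1b the limma folds were 2.46 and 3.75. Ttk, the MPS1 kinase at the head of the checkpoint, had levels of 6.05 and 6.10 at P5, 6.54 and 6.46 at P10 and 6.01 and 6.04 in adults. It was well above background at P10 alone, where it was at least 1.28-fold higher than in adults (log2 0.47 ± 0.10, adjusted p = 0.0405), a call lost in 5 of 10 alternatives, at adjusted p of 0.0518 to 0.418. Its P5/adult ratio of 0.15 ± 0.10 (adjusted p = 0.259) compared signals that were below that limit on both sides, and the P5/P10 difference was not called (adjusted p = 0.0593) but was in 4 of 10 alternatives, at -2.54 with the processed signals.

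All 4 mitotic kinases were higher at both ages. Plk1, which acts from mitotic entry to cytokinesis, had levels of 10.17 and 10.00 at P5, 10.88 and 10.34 at P10 and 7.67 and 7.62 in adults. Its ratios were 2.44 ± 0.15 (adjusted p = 0.000842) for P5/adult and 2.86 ± 0.15 (adjusted p = 0.00212) for P10/adult. The dye-exchanged P10/adult arrays gave 3.17 in replicate 1 and 2.42 in replicate 2, a wider gap than the 3.21 and 2.80 of the first dye order. Aurka, the centrosomal Aurora kinase, had ratios of 2.02 and 2.58. Nek2, a centrosome-separating kinase, and Melk, a kinase abundant in proliferating progenitors, were not well above background in adults. By levels, Nek2 was at least 1.63-fold higher at P5 and at least 2.75-fold higher at P10, and Melk at least 2.6-fold and at least 4.41-fold higher. The limma folds of Nek2 were 1.61 and 2.79.

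The chromosomal passenger complex corrects faulty attachments and directs cytokinesis. Birc5, survivin, which anchors it to centromeres, had levels of 11.23 and 11.37 at P5, 12.23 and 11.69 at P10 and 7.56 and 7.41 in adults. Its ratios were 3.91 ± 0.15 (adjusted p = 0.000525) for P5/adult and 4.45 ± 0.15 (adjusted p = 0.00168) for P10/adult. The 4 P10/adult arrays gave 4.67, 4.29, 4.74 and 4.24. Cdca8, borealin, had ratios of 2.62 and 2.91, and Incenp, the scaffold, 1.59 and 1.76. Aurkb, the kinase of the complex, was not kept, because its probe was well above background in 0 of 4 P5 channels, 4 of 6 P10 channels and 0 of 6 adult channels; at P10 it was at least 1.25-fold higher than in adults, with no test.

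Of the 7 centromere and kinetochore members, 6 were tested and all 6 were higher at both ages. Spc25, a subunit of the Ndc80 complex that holds microtubule ends, had levels of 10.53 and 10.67 at P5, 11.45 and 11.23 at P10 and 7.53 and 7.49 in adults, with ratios of 3.07 ± 0.10 (adjusted p = 0.000525) and 3.80 ± 0.10 (adjusted p = 0.00168). The P10/adult arrays gave 3.83, 3.85, 4.05 and 3.57. The other subunits of that complex had P10/adult ratios of 2.13 ± 0.18 (Spc24), 1.99 ± 0.16 (Nuf2) and 1.35 ± 0.14 (Ndc80), and P5/adult ratios of 1.36, 0.996 and 1.37. The probes of Spc24 and Nuf2 were well above background in 2 and 3 of 6 adult channels, and no order is read among the 4: with the processed signals Spc25, Spc24, Nuf2 and Ndc80 stood at 4.46, 4.20, 3.82 and 2.31 at P10. Cenpe, the kinesin that aligns chromosomes from the kinetochore, had ratios of 3.01 and 3.34, and Cenpa, the histone H3 variant that marks centromeres, 1.44 and 1.88. Cenpf, a large protein of the outer kinetochore, was not kept, with 0 of 4 P5 channels, 3 of 6 P10 channels and 0 of 6 adult channels well above background. Among 38 other centromere and kinetochore genes, 25 were called higher and 4 lower at P5, and 27 higher and 0 lower at P10, with medians of 0.53 and 0.91. The highest were Cenph (2.59 at P5, 2.59 at P10), of the constitutive centromere network, and Ska1 (2.41 and 2.76), which binds microtubules at kinetochores; the lowest of those called at P5 were Cenpb (-0.69), which binds a centromeric DNA repeat, and Mis12 (-0.62), of the kinetochore core.

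The 5 kinesin motors were called higher at both ages. Kif20a, which carries the passenger complex to the midzone, had levels of 8.67 and 8.35 at P5, 9.71 and 8.91 at P10 and 6.72 and 6.33 in adults. Its ratios were 2.18 ± 0.12 (adjusted p = 0.000746) for P5/adult and 2.74 ± 0.12 (adjusted p = 0.00186) for P10/adult, and the P10/adult arrays spread from 2.55 to 3.33. Kif4, a chromosome-arm motor, had ratios of 1.01 and 1.74, and Kif23, which bundles midzone microtubules, 0.90 and 1.69. The Kif4 probe was well above background in 3 of 6 adult channels, and with the processed signals its ratios were 2.87 and 3.76. Kif11, the motor that pushes the spindle poles apart, and Kif2c, a microtubule depolymerase, were not well above background in adults. By levels, Kif11 was at least 2.29-fold higher at P5 and at least 3.34-fold higher at P10, and Kif2c at least 1.43-fold and at least 1.85-fold higher. The limma folds of Kif11 were 2.24 and 3.29.

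Of 8 spindle assembly and cytokinesis members, 8 were called higher at P5 and 7 at P10. Prc1, which cross-links midzone microtubules, had levels of 10.68 and 10.21 at P5, 11.32 and 10.79 at P10 and 8.08 and 7.72 in adults, with ratios of 2.63 ± 0.10 (adjusted p = 0.000525) and 2.99 ± 0.10 (adjusted p = 0.00168). Aspm, which focuses spindle poles, had ratios of 2.53 and 2.70. Its probe was well above background in 1 of 6 adult channels, and with the processed signals the ratios were 4.97 and 5.33. Nusap1, a spindle-associated protein, had ratios of 2.31 and 2.56, and Tpx2, the activator of Aurora A, 1.82 and 2.63. Among the cytokinesis proteins, Racgap1, a GTPase-activating protein of the spindle midzone, had ratios of 1.85 and 1.74, Ect2, which activates RhoA at the cleavage plane, 1.12 and 2.06, and Anln, which links the contractile ring to the membrane, 0.69 and 1.52. Anln is also made by oligodendrocytes, and its levels were 9.56 and 9.28 at P5, 10.52 and 10.33 at P10 and 8.53 and 9.02 in adults. Its P5/adult call (adjusted p = 0.0357) was lost in 7 of 11 alternatives, and the ratio was 0.26 with median centring and 0.34 with the every-spot background fit. Hmmr, a spindle protein and hyaluronan receptor, was the exception, with levels of 10.64 and 9.63 at P5, 9.24 and 9.24 at P10 and 8.89 and 8.75 in adults: 1.39 ± 0.28 (adjusted p = 0.0139) for P5/adult and 0.41 ± 0.28 (adjusted p = 0.402) for P10/adult.

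In the chromosome structure group, Mki67, the Ki-67 protein that coats mitotic chromosomes and is the usual marker of cycling cells, had the largest ratio of all members at P5 and stood with Birc5 at the top at P10, where the 2 ratios differed by less than their SE. Its levels were 12.75 and 12.66 at P5, 12.57 and 12.38 at P10 and 7.97 and 7.96 in adults, so the young and adult ranges lay far apart. The ratios were 4.80 ± 0.11 (27.8-fold, adjusted p = 0.000525) for P5/adult and 4.52 ± 0.11 (22.9-fold, adjusted p = 0.00168) for P10/adult. The P5/adult arrays gave 4.73 and 4.77, and the 4 P10/adult arrays lay between 4.36 and 4.78. The order at P10 was another with the processed signals, where Mki67, at 4.97, stood below Bub1 (5.60), Aspm (5.33), Birc5 (5.13), Melk (5.02) and Top2a (5.00). Top2a, the topoisomerase that untangles sister chromatids, had levels of 8.44 and 8.50 at P5, 9.63 and 9.23 at P10 and 6.59 and 6.37 in adults, with ratios of 1.99 and 2.90. The Top2a probe was well above background in 2 of 6 adult channels, and with the processed signals the ratios were 3.53 and 5.00. The condensin subunits Smc2 (0.81 and 1.51) and Smc4 (1.08 and 1.36) had smaller ratios. Ncapg, another condensin subunit, had levels of 6.29 and 6.37 at P5, 6.42 and 6.35 at P10 and 6.16 and 6.07 in adults. Its ratios of 0.21 ± 0.09 (adjusted p = 0.119) and 0.27 ± 0.09 (adjusted p = 0.12) did not pass the test. With the processed signals they were 1.62 (adjusted p = 0.0207) and 2.21 (adjusted p = 0.0305), and with an offset of 10 they were also called, at 0.49 and 0.62. The adult signal was not well above background. The bounds from levels were 1.14-fold at P5 and 1.18-fold at P10. They carry no error or test and do not establish a difference.

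**Figure D3:**
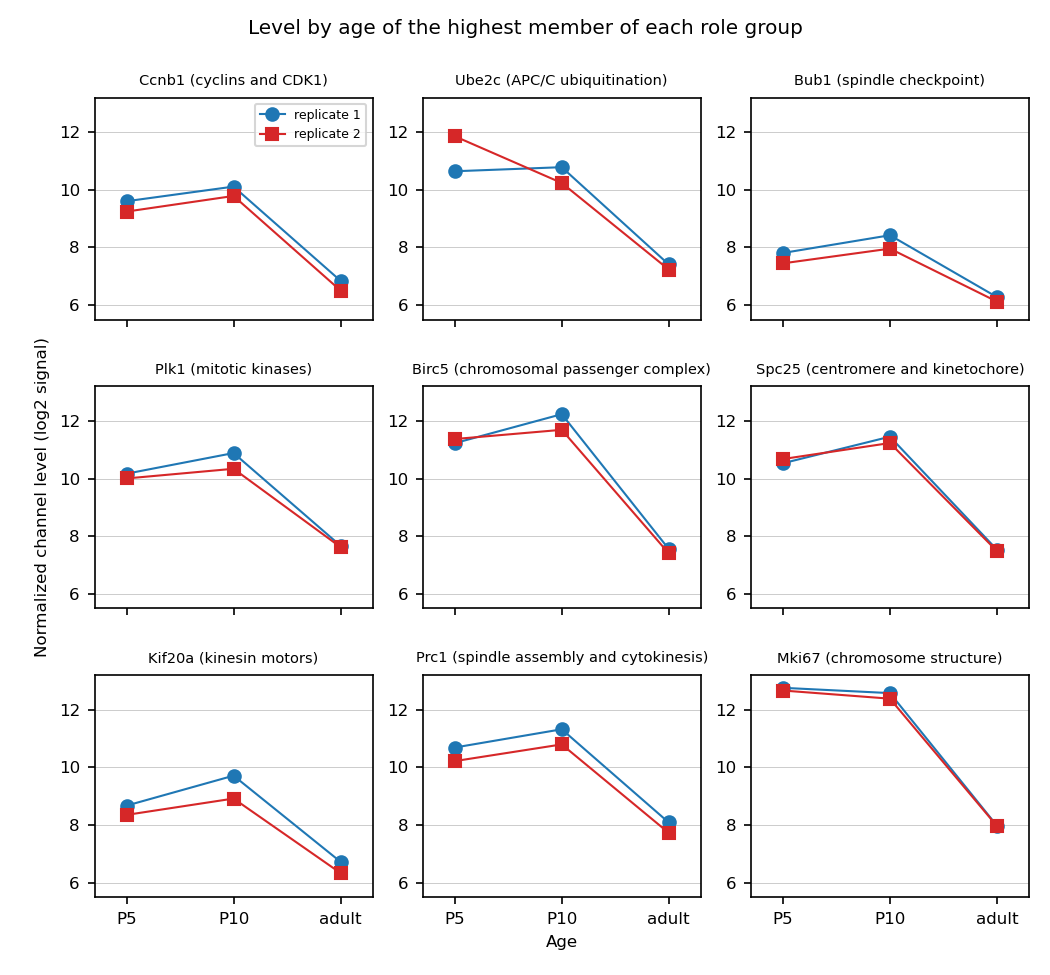
Normalized channel level (log2 signal) at P5, P10 and in adults for the member with the highest P10/adult ratio of each of the 9 role groups, with 1 line per replicate. In all 9 genes both young ages lie above the adult values in both replicates; P10 lies above P5 in both replicates except for Ube2c, whose replicates differ, and Mki67, where P5 is slightly higher.

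Of the 41 tested members, 26 were well above background on every spot in every adult channel, 8 in some adult channels and 7 in none. With these entered at their bounds where there was one, the medians stayed at 1.59 and 2.13. The bounds lay close to the measured ratios, so this says little about adult signals that were not measured. The offset of 50 that was added to each signal draws the ratios of dim probes toward 0; with an offset of 10 the medians were 2.22 and 2.98. In 6 of the 11 members with several kept probes, the probes differed by over 1 on the log2 scale in either comparison. At P10, the 3 Birc5 probes gave 4.45, 2.55 and 1.86, the 3 Ccnb1 probes 3.28, 1.24 and 1.14, the 2 Cdk1 probes 3.23 and 0.87, and the 2 Cdca8 probes 2.91 and 1.80. The 2 Nuf2 probes gave 1.99 and 0.35. The probe that represented the gene had the largest ratio in each of these genes. With the deposited processed signals, the probes of Birc5 stood at 5.13, 4.28 and 4.38, those of Cdca8 at 3.46 and 3.49 and those of Cdk1 at 4.56 and 3.77, all within 1 of each other. The probes of Ccnb1, at 4.77, 3.31 and 3.02, of Nuf2, at 3.82 and 2.27, and of Tpx2, at 4.08 and 0.74, remained over 1 apart. The 2 Tpx2 probes, which carry different transcript accessions, gave 2.63 and 0.24 at P10 and 1.82 and -0.10 at P5; the second probe did not pass the test in either comparison (adjusted p = 0.21 and 0.48, limma over all kept probes). Of the 54 kept member probes, 54 lay above 0 for P10/adult and 53 for P5/adult.

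Between the 2 young ages, most members were lower at P5 than at P10. Of the 41 tested, 24 were called lower and 1 higher at P5, where 18.2% of all genes were called lower and 23% higher. The median P5/P10 ratio was -0.45, beside 0.06 over all genes, and 36 of 41 members lay below 0. The sign was the same in both replicates for 38 members, with replicate medians of -0.61 and -0.44. None of the members reached a 2-fold difference here, whereas 12 did with the processed signals, 10 of them called, with Ttk the furthest at -2.54. The P5/P10 difference was larger in size than the P5/adult one in 3 members, Nek2, Anln and Ttk, and larger than the P10/adult one in 1, Hmmr. Without the replicate block, 9 members were called lower and 0 higher, and with the background model fitted on every spot none was called by limma, with 6 at an unadjusted p under 0.05.

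**Figure D4:**
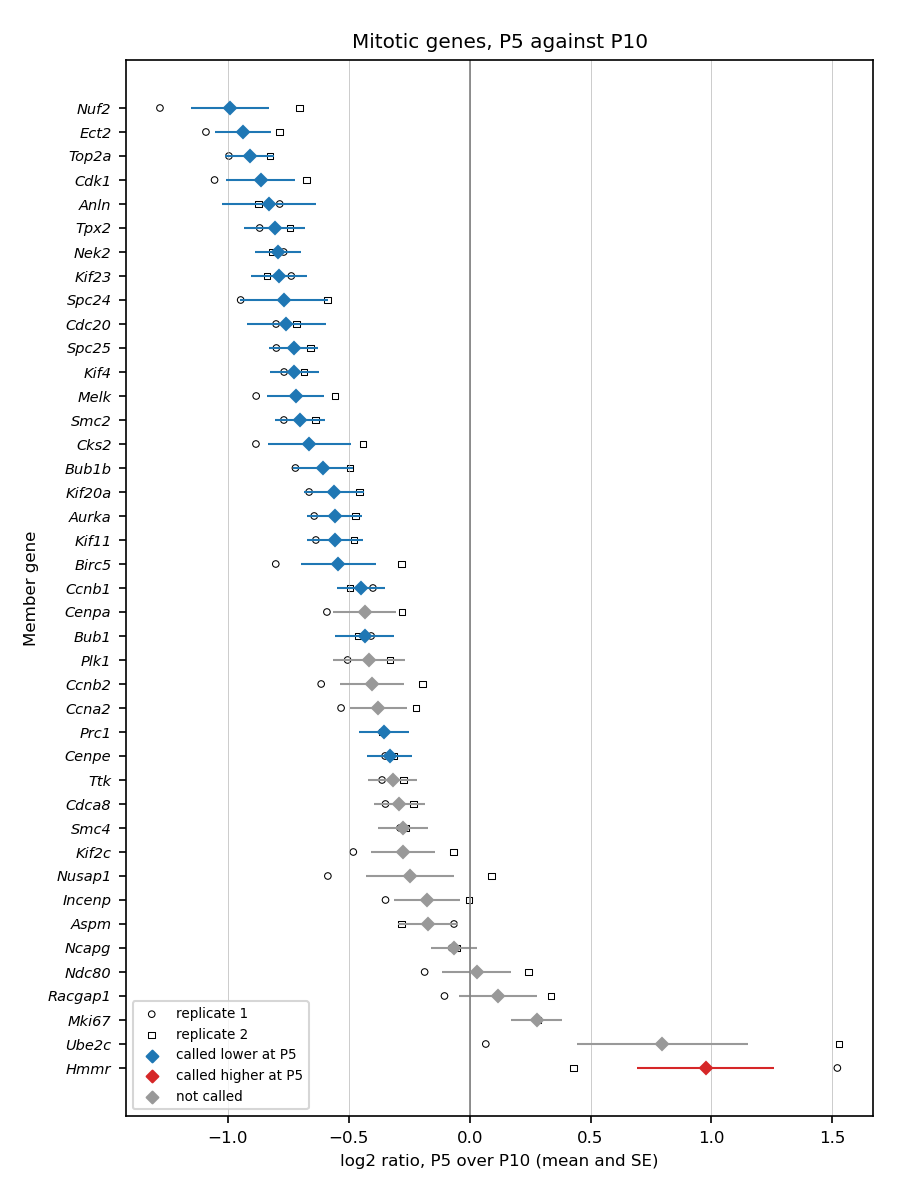
Log2 ratio of P5 over P10 for the 41 tested members, ordered from lowest to highest. Diamonds and bars are means and SE, open circles and squares are replicates 1 and 2; blue marks the 24 members called lower at P5, red the 1 called higher (Hmmr) and grey those not called. Ratios run from -0.99 (Nuf2) to 0.98 (Hmmr).

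The 10 called members with the largest P5/P10 differences came from 6 of the role groups. Nuf2, of the Ndc80 complex, had levels of 7.39 and 7.32 at P5 against 8.71 and 8.03 at P10, and a ratio of -0.99 ± 0.16 (adjusted p = 0.0131); the arrays that paired P5 with P10 directly gave -1.21 and -0.57. Its dimmer probe gave 0.02 and was not called. Ect2 had levels of 7.73 and 7.79 at P5 against 8.91 and 8.46 at P10, with a ratio of -0.94 ± 0.12 (adjusted p = 0.0078) and -1.10 and -0.61 on the direct arrays. For Top2a the ratio was -0.91 ± 0.10 (adjusted p = 0.0067), with -1.19 and -0.57 on the direct arrays, and for Cdk1 it was -0.87 ± 0.14 (adjusted p = 0.0137), with -0.98 and -0.52. In these 4 genes both P5 values lay below both P10 values, and replicate 1 had the larger difference.

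Anln had a P5/P10 ratio of -0.83 ± 0.20, with -0.84 and -0.88 on the direct arrays, and Tpx2, with levels of 8.70 and 8.32 at P5 and 9.70 and 8.87 at P10, had -0.81 ± 0.13, with -0.87 and -0.50. Nek2 (6.95 and 6.98 at P5, 7.82 and 7.61 at P10) stood at -0.79 ± 0.09, and Kif23 (7.93 and 7.55 at P5, 8.80 and 8.43 at P10) at -0.79 ± 0.12. Spc24 had 7.79 and 7.36 at P5, against 9.10 and 7.97 at P10, and a ratio of -0.77 ± 0.18. In all 5 genes both P5 levels lay below both P10 levels. Hmmr ran the other way, at 0.98 ± 0.28 (adjusted p = 0.0464), with 1.47 on the direct array of replicate 1 and 0.44 on that of replicate 2. The Hmmr call was lost in 6 of 11 alternatives. Among the members called lower, Prc1 lost its call in 7 of 11 alternatives and Cenpe in 6. By role, 4 of 5 kinesins, 3 of 4 kinases, 4 of 6 centromere and kinetochore members, 3 of 5 cyclin group members, 2 of 3 checkpoint members, 4 of 8 spindle assembly and cytokinesis members, 1 of 2 members serving the anaphase-promoting complex, 2 of 5 chromosome structure members and 1 of 3 passenger complex members were called lower at P5. Of the members with the largest adult ratios, Birc5 (-0.54, adjusted p = 0.0437, a call lost in 5 of 11 alternatives) and Spc25 (-0.73, adjusted p = 0.0101) were lower at P5, whereas Mki67 (0.28, adjusted p = 0.0923) and Ube2c (0.80, adjusted p = 0.131) were not called.

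Other cell cycle genes gave the following values. They stand beside shares over all genes of 30.1% higher and 23% lower at P5, and 8.42% and 9.1% at P10. At P5 against P10, 18.2% of all genes were called lower and 23% higher. Of 45 tested genes from a list of further spindle, cytokinesis and mitotic entry genes, 40 were called higher at P5 and 41 at P10 than in adults, with 0 lower at either age and medians of 1.09 and 1.43. Cdca3, a mitotic entry factor, had 2.97 at P5 and 3.13 at P10. Cdc25b, the phosphatase that starts CDK1 activity, had 3.15 at P5 but 1.08 at P10, and its P5/P10 ratio of 2.07 ± 0.22 (adjusted p = 0.00634) was the highest of the list, in which 22 genes were lower and 3 higher at P5. The lowest P5/P10 values called were Cdca5 (-0.81), which protects cohesion, and Depdc1b (-0.78). Of 25 tested DNA replication genes, 21 were higher at P5 and 23 at P10, with medians of 0.80 and 1.40, and 14 were lower at P5 than at P10, among them Mcm2 (-0.87), of the replicative helicase. Uhrf1, which maintains DNA methylation, had the highest ratios of that list, 2.70 at P5 and 3.15 at P10, followed by Rrm2, of ribonucleotide reductase, with 2.39 and 2.91.

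Inhibitors of the cycle were called lower in the young vessels more often than higher. Of 17 CDK inhibitors and quiescence genes, 9 (52.9%) were called lower and 0 higher at P5, beside 23% and 30.1% of all genes. At P10, 6 (35.3%) were lower and 2 (11.8%) higher, beside 9.1% and 8.42% of all genes, so the share higher was near that of all genes. The medians were -0.46 and -0.26. Cdkn2b, p15, had ratios of -2.34 ± 0.27 at P5 and -1.35 ± 0.27 at P10, and Cdkn1a, p21, -1.75 ± 0.15 and -1.44 ± 0.15. The 2 genes higher at P10 were Cdkn2c, p18 (0.86), and Btg1, an antiproliferative gene (0.47), and both were lower at P5 than at P10, at -0.96 and -0.69.

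Markers of cell types moved with these comparisons, and their part in the results was not tested. Against adults, 30.1% of all genes were called higher and 23% lower at P5, and 8.42% and 9.1% at P10. For P5 against P10 the shares were 23% higher and 18.2% lower. Of the 12 endothelial markers, 12 were lower at P5 than in adults (median -1.70) and 12 lower at P5 than at P10 (median -1.25), while 4 were lower at P10 than in adults (median -0.40). Of 9 tested pericyte markers, 8 were lower at P5 than in adults and 8 lower at P5 than at P10. Immature neuron markers were higher in 9 of 10 cases at P5 and 8 of 10 at P10 than in adults (medians 2.42 and 0.89), and 9 of 10 were higher at P5 than at P10. Radial glia and progenitor markers were higher in 7 of 8 cases at P5 and 1 of 8 at P10, and oligodendrocyte precursor markers in 6 of 6 and 2 of 6. The radial glia and progenitor share at P10, 12.5%, was near the 8.42% of all genes. The remaining radial glia and progenitor marker was called lower at P5 than in adults, at -1.03. Erythroid markers were higher in 9 of 9 cases at P5 and 5 of 9 at P10, granulocyte markers in 1 of 8 and 0 of 8, microglia markers in 3 of 8 and 0 of 8, and fibroblast markers in 2 of 6 and 3 of 6, with 2 of 6 lower at P5 (limma; at P10, 0 granulocyte and 0 microglia markers had an unadjusted p under 0.05). The shares called higher at P5, 37.5% of microglia and 33.3% of fibroblast markers, lay near the 30.1% of all genes. The mean level of the 41 members was 9.06 and 8.99 at P5, 9.71 and 9.31 at P10 and 7.28 and 7.14 in adults. That of the immature neuron markers was 10.62 and 10.53 at P5, 9.20 and 8.96 at P10 and 8.16 and 8.04 in adults, highest at P5, whereas the members were highest at P10. Erythroid markers averaged 12.61 and 13.24 at P5, 11.10 and 11.65 at P10 and 10.00 and 10.03 in adults, and radial glia and progenitor markers 10.75 and 10.64, 9.91 and 9.94, and 9.63 and 9.61. Fibroblast markers were highest at P10, as the members were, with 11.54 and 11.17 at P5, 12.33 and 12.17 at P10 and 11.03 and 11.04 in adults, and 4 of 6 were lower at P5 than at P10 (median -0.79). Higher at P5 than at P10 were 7 of 8 radial glia and progenitor markers, 5 of 6 oligodendrocyte precursor markers, 6 of 9 erythroid, 3 of 8 granulocyte and 2 of 8 microglia markers. The microglia share of 25% was near the 23% of all genes. The remaining radial glia and progenitor marker was called lower at P5 than at P10, at -0.79. Pericyte markers averaged 11.20 and 10.96 at P5, 12.21 and 11.93 at P10 and 12.34 and 12.37 in adults.

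**Figure D5:**
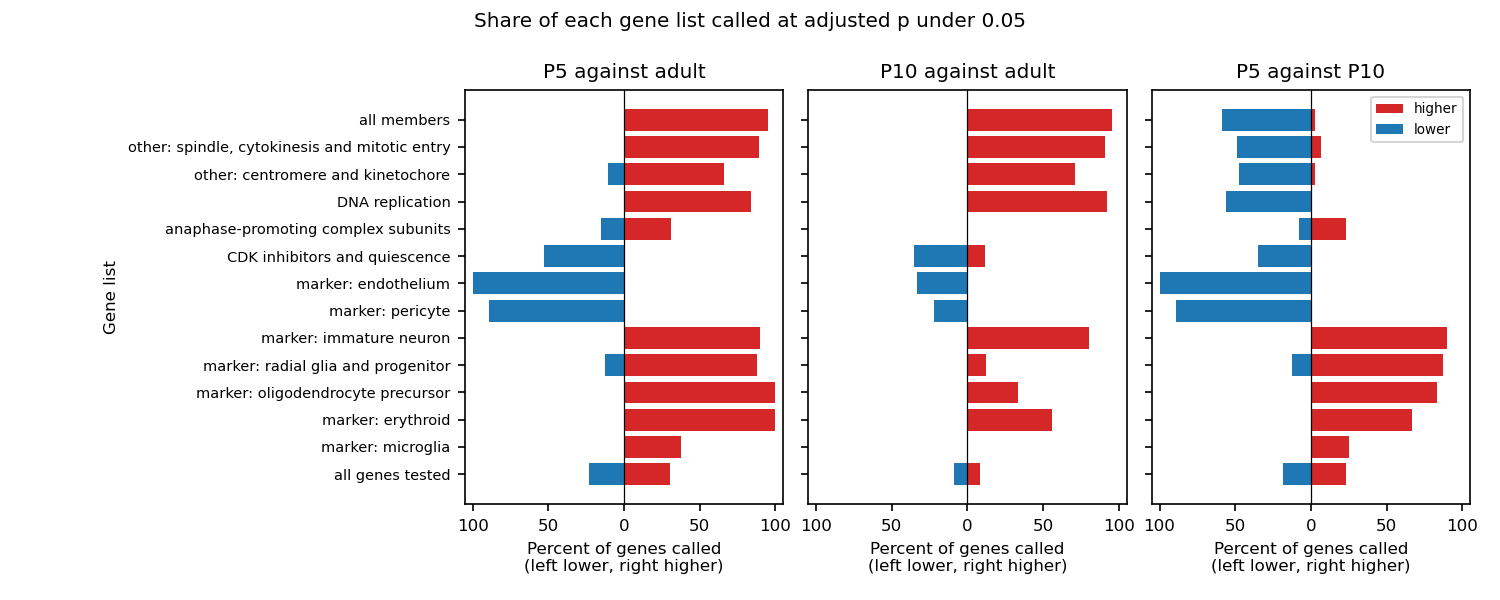
Percent of the tested genes of each list called higher (red, right) and lower (blue, left) at a limma adjusted p under 0.05, in the 3 comparisons, with all 21926 genes in the bottom row. The members are higher in 95.1% of cases against adults at either age and lower in 58.5% of cases at P5 against P10, where all endothelial markers are lower and 90% of immature neuron markers are higher.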

How the data were processed

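The authors deposited the scanner output of 8 two-colour arrays from Agilent Feature Extraction; the file headers name version 10.5.1.1 and the submitters' processing notes 12.6. Median signals, local backgrounds and processed signals are linear intensity columns per the file headers. The log ratio deposited beside them is a log10 value per the file headers and was not used. Ages, dyes, replicates and ratio directions come from the labels; same-numbered arrays share a slide, so the replicate is a block.

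With limma 3.58.1 in R 4.3.3, median signals were background corrected by normexp (offset 50) and normalized by loess (span 0.3). On 2 arrays, 11 spots recorded a background more than 100 above their signal; the array's median background replaced theirs during the fit, and the spots were then dropped. Spots of a probe were averaged. Per slide, least squares gave P5-adult, P10-adult and a dye term, and limma tested age plus replicate. Levels are channel values after loess and between-array quantile scaling of average intensity. Names come from the RefSeq table (GRCm38.p6), matched by accession for 27427 of 39429 probes; the probe design names build mm9, so no probe coordinates are given. The script was tested on simulated data. The members and lists were chosen with earlier results of these data known. All members may be named; replicate and array values are given for the highest and lowest in P10/adult, the highest per role, those not called against adults and the 10 largest called P5/P10 differences. From other lists, up to 2 genes at each end of those called are named. Alternatives changed the background, signal, scaling, filter, probe rule, arrays and block.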

Additional observations from a re-analysis of the deposited data

Results flagged for a closer look

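Hmmr was the 1 member whose difference from the adult was larger at P5 than at P10 by test: its P5/adult ratio less its P10/adult ratio was 0.9755 on the log2 scale (SE 0.28, limma adjusted p = 0.0464 over all genes), and the difference had the same sign in both replicates, at 1.52 and 0.43. The adjusted p was 0.0704 with the processed signals, 0.0644 without the 2 arrays that held spots of faulty background, 0.0721 with median centring, 0.0766 with no filter and 0.0959 without the replicate block. With the background model fitted on every spot, the limma adjusted p was 0.151.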

How the results depend on the processing

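Each tested member kept a ratio above 0 against the adult in the alternatives given here, apart from Ttk for P5/adult with the every-spot fit, but the counts depended on the background model. With normexp fitted on every spot, 12, 3 and 0 members were called for P5/adult, P10/adult and P5/P10, with medians of 1.09, 1.65 and -0.77; at an unadjusted p under 0.05 there were 18, 37 and 6 members. That fit takes in the 11 spots of faulty background, which lay on 2 arrays, and the cause of the lower counts was not tested. Processed signals gave medians of 2.99, 3.81 and -0.69, an offset of 10, chosen after seeing the data, 2.22, 2.98 and -0.63, and no background correction 1.80 and 2.41 against adults. Keeping probes well above background at all ages left 26 members, of which 25 were called for P10/adult and 14 for P5/P10, with adult medians of 2.23 and 2.74; fewer genes were tested. The P5/adult median was 1.44 with the median over probes and 1.44 without the 2 arrays of faulty spots. Without the replicate block, 9 members were called for P5/P10; for the members this moved no other count by over 1.5 times. Over all genes, the main counts of 1847 higher and 1996 lower for P10/adult, and of 5042 and 3991 for P5/P10, came to 846 and 994, and 2987 and 2356, without the block; to 852 and 1033, and 3305 and 2306, without the faulty arrays; and to 103 and 154, and 0 and 0, with the every-spot fit (7064 at an unadjusted p under 0.05 for P5/P10). Median centring gave 666 and 613 for P10/adult. For P5/adult, 6596 and 5048 became 2769 and 2610 with the every-spot fit. With median centring the P5/P10 median was -0.75, all genes shifted by -0.17 (P5/adult) and -0.18 (P5/P10), and the share of calls that were higher was 46.6% and 39.9%, against 56.6% and 55.8% with loess. Leaving out 1 replicate gave medians of 1.58 to 1.73, 1.98 to 2.25 and -0.61 to -0.44, with no test. Over 9 alternatives, leaving aside the every-spot fit and the all-ages filter, 35 of 39, 37 of 39 and 7 of 25 called members stayed called in each, the exceptions against adults being Spc24, Anln, Smc2 and Smc4 at P5 and Ttk and Smc4 at P10, and the 7 being Nek2, Spc25, Nuf2, Kif23, Ect2, Top2a and Smc2. Sign changes fell on ratios that were not called, and the cause was not tested. For P5/P10, Ndc80 came to -0.0702 with processed signals, -0.17 without the faulty arrays, -0.0744 without the dye-exchanged arrays, -0.0901 without the block and -0.29 with the every-spot fit. Racgap1 came to -0.0112 with processed signals, -0.27 with median centring, -0.27 with the median over probes and -0.22 with the every-spot fit. The median over probes takes in the dimmer kept Racgap1 probe. That probe gave -0.65 (adjusted p = 0.0164, limma over all kept probes), beside 0.12 for the brightest. Median centring gave 0.0093 for Kif2c, -0.30 for Mki67 and 0.30 for Ncapg; the every-spot fit gave -0.11 for Mki67, and leaving out the faulty arrays 0.0214 for Ncapg. Ttk for P5/adult came to -0.0111 with the every-spot fit.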
